A study of Arabidopsis thaliana with 6 samples.

Results

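Glutathione transferase transcripts were measured in dark-grown Arabidopsis thaliana seedlings of lon1-1, a mutant of the mitochondrial matrix protease LON1, and of Col-0, the wild type (wt). The genes were the nuclear ones whose own description, or best match in the Nr protein database, contained the words glutathione S-transferase or glutathione transferase. This search found 58 of the 24193 genes listed. Of these, 57 carried the name in their own description: 28 of the tau class, 13 phi, 3 theta, 2 zeta, 3 lambda and 8 whose gene symbol and synonyms gave no class. The remaining gene, MSRB1 (AT1G53670), a methionine sulfoxide reductase, matched through Nr only and is left out of every count. It averaged 22.9 ± 1.36 FPKM in lon1-1 and 29.2 ± 2.50 FPKM in wt (SD, n = 3 each). The 3 dehydroascorbate reductase genes (DHAR1, DHAR2 and DHAR3), which belong to the same superfamily, carried neither phrase, so they are given beside the family and not counted in it.

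RNA came from whole seedlings grown for 6 days in darkness, with 3 libraries of lon1-1 and 3 of wt, lettered A, B and C and described by the series as independent biological replicates. Ribosomal RNA was removed before stranded sequencing. The titles name the genotype, whereas the genotype field reads Col-0 for all 6 libraries. The labels give neither the kind of lesion in lon1-1 nor the number of seedlings behind a library. LON1 (AT5G26860) had 2.67, 2.61 and 2.79 FPKM in the lon1-1 libraries, against 4.69, 4.70 and 4.69 FPKM in the wt libraries, a log2 fold change of -0.63 (SE 0.0553, limma adjusted p = 3.58e-06). It was lower in every library titled lon1-1 than in any titled wt.

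Values are FPKM, fragments scaled to transcript length and to the mapped fragments of the library, so levels of different genes are compared per length. Fold changes are lon1-1 minus wt on the log2(FPKM + 1) scale, which understates changes of genes at low FPKM. A gene was tested if it reached 1 FPKM in at least 3 of the 6 libraries, and called if limma's p, adjusted over all 18308 genes tested, was below 0.05. Depth, estimated from the smallest steps that FPKM values take, was 32250000 to 35250000 fragments per library. In bulk RNA from whole seedlings, fewer cells of a type and less RNA per cell cannot be told apart. Of the root markers tested, 9 of 12 were higher and 2 lower in lon1-1, the higher ones being genes of root hairs and the root epidermis, such as RHD6 and EXPA7; of all genes tested, 44.7% were higher and 32.3% lower. Their summed level was 289.65 to 313.28 FPKM in lon1-1 and 342.68 to 371.24 FPKM in wt, a sum in which the endodermal CASP1 alone averaged 153 ± 8.12 FPKM in lon1-1 and 272 ± 13.1 FPKM in wt. Of 6 tested markers of shoot meristem and epidermis, 2 were higher and 3 lower, with sums of 333.29 to 415.12 FPKM in lon1-1 and 243.46 to 260.76 FPKM in wt. In that sum the epidermal PDF1 alone averaged 313 ± 39.9 FPKM in lon1-1 and 184 ± 9.53 FPKM in wt (SD, n = 3 each), while TMM, STM and AS1 were the lower ones. None of the listed markers with values was at 0 in all libraries, and WUS was not found by its locus among the genes listed. The markers' part in the changes below was not tested.

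Glutathione transferases (GSTs) join the tripeptide glutathione to reactive or foreign molecules, which the plant then moves into the vacuole, and many also reduce peroxides or carry small molecules without changing them. Tau and phi are the large plant classes and are widely used as markers of chemical and oxidative stress and of the response to pathogens. Theta enzymes reduce organic hydroperoxides, zeta enzymes act in tyrosine breakdown, and lambda enzymes and DHARs remove glutathione from, or use it to reduce, their substrates.

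Of the 57 genes, 46 were tested, and 19 of them were called higher and 17 lower in lon1-1, with 10 not called. Calls were as frequent among all genes tested, at 77% in either direction, 44.7% higher and 32.3% lower, so a call by itself does not set a GST apart. The median log2 fold change was 0.02 over the tested GSTs and 0.08 over all genes tested. Median-ratio scaling of the libraries, which brings the median of all genes to -0.00, gave 14 higher and 22 lower GSTs. Under that scaling the calls of all genes shifted too, to 6933 higher and 7047 lower of 18299 tested. In limma's treat, which tests against a fold of 1.5, 4 GSTs passed as higher and 6 as lower, where 8.33% and 7.69% of all genes passed in these directions. The 6 lower ones, GSTF7, GSTF6, GSTF3, GSTF2, GSTU18 and GSTL1, and the 4 higher ones, GSTU6, GSTU8, GSTU14 and AT5G42150, belong to the phi, tau and lambda classes or have no class name. GSTU18 and GSTL1 passed the filter only through wt, where they are high. The lon1-1 and wt libraries did not overlap in 35 of the 46 tested GSTs, nor did they in 79.1% of all genes tested. Called and at least 2-fold apart on the log2(FPKM + 1) scale were 1 higher and 6 lower GSTs, where the share of all genes was 4.07% higher and 4.76% lower, or 8.84% together.

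**Figure D1:**
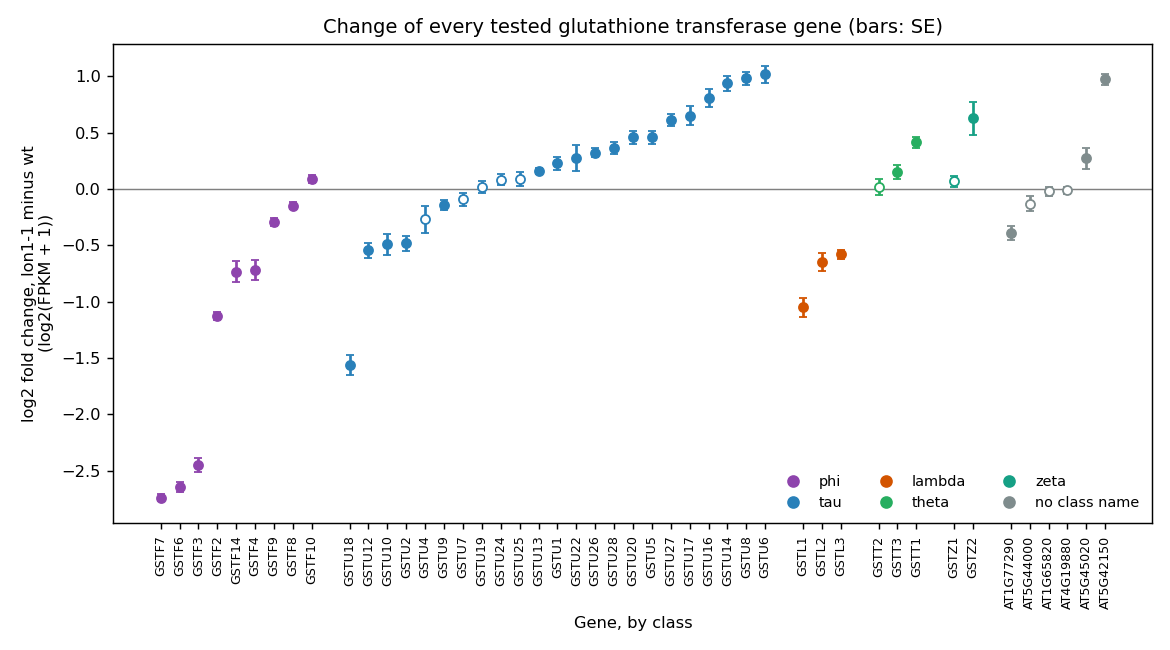
Log2 fold change of each of the 46 tested genes (y axis, lon1-1 minus wt, log2(FPKM + 1) scale) by class (x axis), with the standard error as bars; filled points are genes called by limma at an adjusted p below 0.05, open points are not called. Phi genes reach -2.74, while most tau genes lie above 0.

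On the log2(FPKM + 1) scale, the phi class held the largest falls of the family. By the ratio of mean FPKM, wt over lon1-1, GSTU18 of the tau class (7.97) exceeded GSTF7 (6.77) and GSTF6 (6.39), though not GSTF3 (8.94). The untested AT5G44990, with few fragments in lon1-1, was at 15.4. Of 9 phi genes tested, 8 were lower in lon1-1 (88.9%, against 32.3% of all genes tested) and 1, GSTF10, was higher (11.1%, against 44.7%). The median log2 fold change of the class was -0.73. GSTF7 (AT1G02920, TAIR10.1 chr1:658578-659980, minus strand), an enzyme known as a pathogen- and salicylic-acid-responsive GST, had 64.94, 62.96 and 62.52 FPKM in lon1-1, against 419.76, 429.68 and 438.69 FPKM in wt. The groups lay far apart, and the replicates of each genotype were close together. Its log2 fold change was -2.74 (SE 0.0312, limma adjusted p = 8.29e-12), and mean FPKM was 6.77 times higher in wt.

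GSTF6 (AT1G02930, chr1:661088-662475, minus strand), which conjugates glutathione in the synthesis of the phytoalexin camalexin, is its neighbour and closest relative, with coding sequences 94.3% identical. It had 38.3, 35.64 and 40.14 FPKM in lon1-1, against 244.02, 246.87 and 238.12 FPKM in wt. The pattern was that of GSTF7, with no overlap between genotypes (log2 fold change -2.65, SE 0.0426, limma adjusted p = 3.66e-11). Reads that match both copies could have been assigned to either, which was not tested. The ratio of GSTF6 to GSTF7 was 0.566 to 0.642 in lon1-1 and 0.543 to 0.581 in wt, and their sum averaged 101.5 ± 2.53 FPKM in lon1-1 and 672 ± 7.45 FPKM in wt (SD, n = 3 each).

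GSTF2 (AT4G02520, chr4:1110343-1112033, minus strand), which binds indole compounds such as camalexin and auxin transport inhibitors, had 234.36, 234.42 and 221.69 FPKM in lon1-1, against 510.17, 495.45 and 507.88 FPKM in wt. Every lon1-1 library was below every wt library (log2 fold change -1.13, SE 0.0341, limma adjusted p = 2.09e-09). GSTF3 (AT2G02930, chr2:851156-852321, minus strand), its near copy on another chromosome with a coding sequence 94.5% identical, had 1.44, 1.21 and 1.2 FPKM in lon1-1, against 11.05, 11.61 and 11.74 FPKM in wt. It was scarce in both genotypes next to GSTF2, and the genotypes did not overlap (log2 fold change -2.45, SE 0.0625, limma adjusted p = 6.7e-10). The ratio of GSTF3 to GSTF2 was 0.00516 to 0.00614 in lon1-1 and 0.0217 to 0.0234 in wt. With copies this similar, the GSTF3 level is uncertain, because reads could be assigned to either.

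Promoters of GSTF7 and GSTF3 are shown as examples from the phi genes with the largest falls, chosen after their motifs were known. The windows are the 250 bases before the annotated start, from the RefSeq annotation of TAIR10.1, read 5′ to 3′ on the gene's own minus strand: GSTF7 at chr1:659981-660230 and GSTF3 at chr2:852322-852571. No annotated gene overlaps these windows, whereas that of GSTF2 overlaps a neighbouring gene and is not shown. Capitals mark TTGAC, the W-box core bound by WRKY factors, and TGACG, the core bound by TGA factors, on either strand (GTCAA and CGTCA on the other one). TTGACG would count for both motifs, and no match in these windows overlapped another in that way.
GSTF7: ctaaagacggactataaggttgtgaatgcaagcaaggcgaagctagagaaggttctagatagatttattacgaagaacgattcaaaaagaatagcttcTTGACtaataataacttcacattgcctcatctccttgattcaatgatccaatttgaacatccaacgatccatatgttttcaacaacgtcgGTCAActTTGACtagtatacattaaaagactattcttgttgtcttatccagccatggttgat
GSTF3: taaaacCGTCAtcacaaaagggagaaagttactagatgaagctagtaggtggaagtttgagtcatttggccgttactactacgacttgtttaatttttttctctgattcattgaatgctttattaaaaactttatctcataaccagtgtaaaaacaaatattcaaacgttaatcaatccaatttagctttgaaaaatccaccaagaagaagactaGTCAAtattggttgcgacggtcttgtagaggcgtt
TTGAC occurred 3 times in the GSTF7 window and once in that of GSTF3, which also held TGACG once, and that of GSTF2 held neither. The window of GSTF6, not shown, held TTGAC once and no TGACG. Over the whole family, TTGAC was found in 34 of 57 windows (59.6%) and in 44.9% of 27443 nuclear protein-coding genes, and TGACG in 16 of 57 (28.1%) and 18.6%. Both motifs occurred before genes of either direction: TTGAC lay before 12 of 17 lower and 10 of 19 higher genes, and TGACG before 4 of 17 and 7 of 19. The G-box CACGTG was in 5 of 57 windows, that of GSTF6 among them, and in 6.49% of all. It lay before 4 of 17 lower and 1 of 19 higher genes. Among these lower genes, the windows of GSTL3 and GSTU18 lie mostly or wholly within the neighbouring genes GSTL1 and GSTU17. Windows that overlap a neighbouring gene were kept in all these motif counts. The mitochondrial dysfunction motif was in 1 of 57 windows and in 1.2% of all. A match describes these letters only and is not a binding site.

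The remaining phi genes changed less. GSTF10 (AT2G30870) was the most abundant GST, with 627.23, 588.65 and 608.5 FPKM in lon1-1, against 585.89, 563.4 and 565.44 FPKM in wt. These levels nearly met, and its call higher (log2 fold change 0.09, limma adjusted p = 0.0475) was lost when either lon1-1 A (adjusted p = 0.164), lon1-1 C (0.0815), wt B (0.142) or wt C (0.121) was left out, and turned to -0.00 under median-ratio scaling. Its neighbour GSTF9 (AT2G30860), a GST with peroxidase activity, had 394.33, 373.83 and 376.87 FPKM in lon1-1, against 481.66, 459.58 and 459.95 FPKM in wt, with all lon1-1 libraries lower (log2 fold change -0.29, SE 0.0357, limma adjusted p = 3.99e-05).

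GSTF8, a plastid enzyme whose promoter is a long-used reporter of oxidative stress, averaged 129 ± 2.96 FPKM in lon1-1 and 144 ± 3.84 FPKM in wt (SD, n = 3 each; log2 fold change -0.15, limma adjusted p = 0.00208). Small members fell as well: GSTF4, the fourth gene of the GSTF7 array, averaged 4.79 ± 0.640 FPKM in lon1-1 and 8.52 ± 0.769 FPKM in wt, and GSTF14 averaged 1.83 ± 0.127 FPKM in lon1-1 and 3.72 ± 0.576 FPKM in wt (SD, n = 3 each). Their log2 fold changes were -0.72 and -0.73, and in neither gene did the genotypes overlap.

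**Figure D2:**
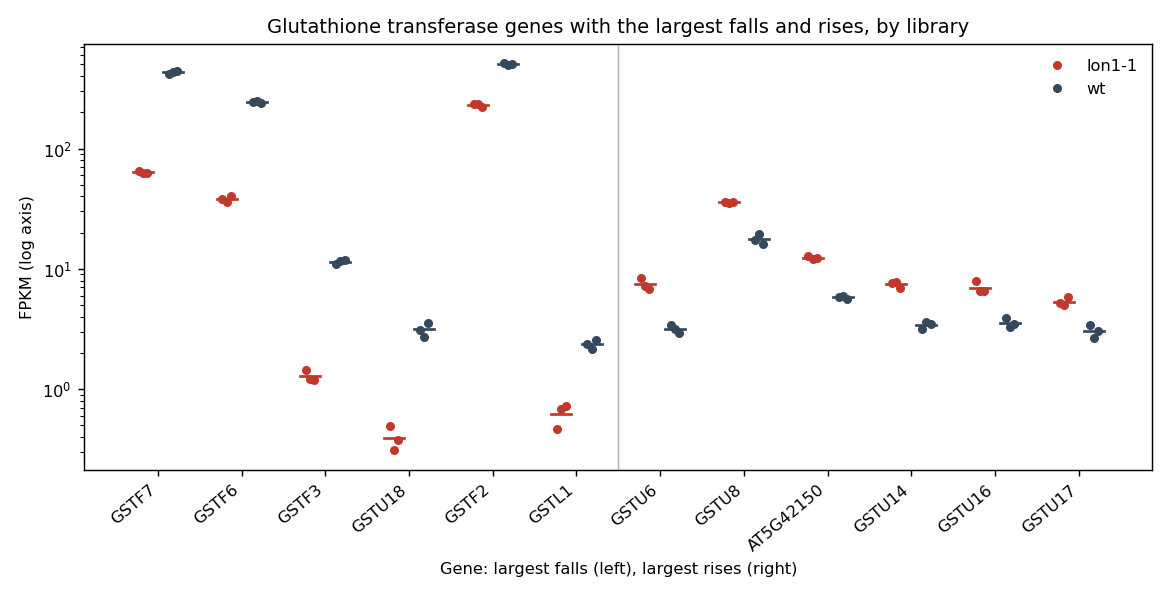
FPKM (y axis, log scale) in each library of lon1-1 (red) and wt (dark blue) for the 6 genes with the largest falls and the 6 with the largest rises; points are libraries and lines are means. GSTF3, GSTU18, GSTF7 and GSTF6 show the widest gaps between genotypes, and among the genes that rose the lowest level is that of GSTU17 in wt B, 2.65 FPKM.

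In the tau class more genes were called higher than lower. Of 23 tested, 13 were higher (56.5%, against 44.7% of all genes tested) and 5 lower (21.7%, against 32.3%), with a median log2 fold change of 0.23. Median-ratio scaling gave 11 higher and 7 lower, where 6933 and 7047 of all 18299 genes tested were. On the log2(FPKM + 1) scale, the rises of tau genes were smaller than the falls of GSTF2, GSTF3, GSTF6 and GSTF7. Only 1 tau gene, GSTU6, was called and at least 2-fold higher on that scale. By mean FPKM, however, GSTU6 was 2.35 times higher in lon1-1, whereas GSTF2 was 2.19 times higher in wt. GSTU6 (AT2G29440, chr2:12619630-12621231, minus strand) had 8.33, 7.25 and 6.83 FPKM in lon1-1, against 3.4, 3.19 and 2.94 FPKM in wt, with all lon1-1 libraries well above all wt ones (log2 fold change 1.02, SE 0.0759, limma adjusted p = 1.05e-06).

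GSTU8 (AT3G09270, chr3:2848183-2849686, minus strand) had 36.0, 35.33 and 36.08 FPKM in lon1-1, against 17.31, 19.66 and 16.12 FPKM in wt. Its lon1-1 libraries were nearly equal and all above wt (log2 fold change 0.98, SE 0.0609, limma adjusted p = 2.87e-07). GSTU14 (AT1G27140, chr1:9427804-9428914, plus strand) had 7.7, 7.74 and 6.98 FPKM in lon1-1, against 3.15, 3.64 and 3.49 FPKM in wt, again without overlap (log2 fold change 0.94, SE 0.0646, limma adjusted p = 6.04e-07). GSTU16 (AT1G59700) had 7.9, 6.49 and 6.59 FPKM in lon1-1, against 3.87, 3.29 and 3.49 FPKM in wt. Replicate A was the highest of each genotype, and the genotypes stayed apart (log2 fold change 0.81, SE 0.0799, limma adjusted p = 7.96e-06).

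GSTU17 (AT1G10370, listed as ERD9), which acts in phytochrome A signalling and the drought response, and its neighbour GSTU18 (AT1G10360) were called in opposite directions. GSTU17 had 5.18, 5.0 and 5.78 FPKM in lon1-1, against 3.42, 2.65 and 3.02 FPKM in wt (log2 fold change 0.65, SE 0.0814, limma adjusted p = 4.44e-05). GSTU18 had 0.49, 0.31 and 0.38 FPKM in lon1-1, against 3.13, 2.74 and 3.53 FPKM in wt (log2 fold change -1.57, SE 0.089, limma adjusted p = 1.52e-07). Neither gene's groups overlapped, and GSTU18 entered the test through its wt libraries alone, where it is high. Its lon1-1 values correspond to about 14.1, 8.9 and 11.2 fragments. The ratio of GSTU18 to GSTU17 was 0.062 to 0.0946 in lon1-1 and 0.915 to 1.17 in wt. Their annotated models share 71 bases on the same strand, their coding sequences are 81.6% identical, and the authors added a transcript to GSTU17, whose Nr description also names GSTU18, so reads near the shared end could be counted for either.

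The 3 most abundant tau genes changed little. GSTU19 (AT1G78380), a much-studied enzyme that conjugates herbicides, had 171.25, 149.32 and 168.09 FPKM in lon1-1, against 161.21, 155.12 and 165.63 FPKM in wt, and the groups overlapped (log2 fold change 0.02, limma adjusted p = 0.764). GSTU13 (AT1G27130), which takes part in indole glucosinolate metabolism, had 77.37, 76.57 and 78.96 FPKM in lon1-1, against 69.15, 70.44 and 68.38 FPKM in wt (log2 fold change 0.16, SE 0.0296, limma adjusted p = 0.000657). Its lon1-1 libraries were all above wt by a small step, and median-ratio scaling ended the call (limma adjusted p = 0.0535). GSTU26 (AT1G17190) had 71.82, 73.86 and 75.96 FPKM in lon1-1, against 61.82, 58.22 and 56.85 FPKM in wt, clearly apart (log2 fold change 0.32, SE 0.0388, limma adjusted p = 3.54e-05).

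Other tau genes can be placed by what they are known for. GSTU24 and GSTU25, which detoxify the explosive TNT, were not called: GSTU24 averaged 13.9 ± 0.795 FPKM in lon1-1 and 13.0 ± 0.334 FPKM in wt, and GSTU25 averaged 11.3 ± 0.804 FPKM in lon1-1 and 10.6 ± 0.631 FPKM in wt (SD, n = 3 each). GSTU20, which binds the jasmonate-conjugating enzyme JAR1 and acts in glucosinolate synthesis, averaged 14.1 ± 0.688 FPKM in lon1-1 and 9.99 ± 0.677 FPKM in wt (SD, n = 3 each) and was called higher (log2 fold change 0.46). GSTU27 was among the more abundant risers, at 45.3 ± 3.24 FPKM in lon1-1 and 29.3 ± 1.76 FPKM in wt (SD, n = 3 each; log2 fold change 0.61). GSTU5, GSTU28 and GSTU1 were also called higher, at log2 fold changes of 0.46, 0.36 and 0.23. GSTU22, at 0.28 (limma adjusted p = 0.0462), had overlapping groups and lost its call without lon1-1 B (0.115), lon1-1 C (0.0985), wt B (0.152) or wt C (0.0782).

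Besides GSTU18, the tau genes called lower were GSTU12, GSTU10, GSTU2 and GSTU9, at log2 fold changes of -0.54, -0.49, -0.48 and -0.14. All but GSTU9 averaged under 5 FPKM in both genotypes: GSTU12, for example, averaged 2.78 ± 0.252 FPKM in lon1-1 and 4.51 ± 0.243 FPKM in wt (SD, n = 3 each). The call of GSTU9 (limma adjusted p = 0.0206) did not pass without lon1-1 B (0.0649), wt A (0.0771) or wt B (0.0684). GSTU7 and GSTU4 were not called, at -0.09 and -0.27.

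All 3 lambda genes were lower in lon1-1, where 32.3% of all genes tested were lower. GSTL1 (AT5G02780) had 0.47, 0.68 and 0.73 FPKM in lon1-1, against 2.36, 2.17 and 2.55 FPKM in wt (log2 fold change -1.05, SE 0.0848, limma adjusted p = 1.89e-06). Like GSTU18, it passed the filter only through wt, and its lon1-1 values correspond to about 15.2, 22.1 and 24.4 fragments. Its neighbour GSTL3 (AT5G02790), the most abundant of the class, had 17.52, 16.18 and 16.65 FPKM in lon1-1, against 25.29, 25.37 and 26.02 FPKM in wt (log2 fold change -0.58, SE 0.0399, limma adjusted p = 6.03e-07). GSTL2 (AT3G55040), the plastid member, had 3.91, 4.05 and 5.02 FPKM in lon1-1, against 6.96, 7.64 and 7.37 FPKM in wt (log2 fold change -0.65, SE 0.08, limma adjusted p = 4.06e-05). In none of the 3 did the genotypes overlap, nor did they in 79.1% of all genes tested.

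DHARs use glutathione to regenerate ascorbate, and the 3 genes divided. DHAR1 had 101.95, 97.92 and 103.24 FPKM in lon1-1, against 140.52, 133.72 and 138.47 FPKM in wt (log2 fold change -0.44, limma adjusted p = 1.18e-06). DHAR3, the plastid form, had 12.34, 11.32 and 12.08 FPKM in lon1-1, against 17.46, 18.85 and 17.86 FPKM in wt (log2 fold change -0.56, limma adjusted p = 2.55e-06). DHAR2, a cytosolic form, had 20.3, 20.43 and 23.02 FPKM in lon1-1, against 17.06, 17.37 and 17.74 FPKM in wt, all lon1-1 libraries being higher (log2 fold change 0.27, limma adjusted p = 0.000734).

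Theta genes were higher or not called. GSTT1 (AT5G41210), a peroxisomal enzyme and the most abundant of the 3, had 40.05, 37.27 and 39.52 FPKM in lon1-1, against 30.88, 28.51 and 27.55 FPKM in wt, with no overlap (log2 fold change 0.41, SE 0.0475, limma adjusted p = 2.35e-05). GSTT3 (AT5G41220) had 6.89, 6.79 and 7.58 FPKM in lon1-1, against 6.23, 6.68 and 5.97 FPKM in wt. These values nearly met, and its call (log2 fold change 0.15, limma adjusted p = 0.0451) was lost without lon1-1 A (0.0591), lon1-1 C (0.163), wt A (0.0949) or wt C (0.141), and under both other scalings. GSTT2 averaged 4.18 ± 0.389 FPKM in lon1-1 and 4.11 ± 0.255 FPKM in wt (SD, n = 3 each) and was not called. GSTT2 and GSTT3 share 91.0% of their coding sequence, so their reads could be divided between them.

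The zeta enzyme GSTZ1 (AT2G02390), a maleylacetoacetate isomerase of tyrosine breakdown, averaged 58.5 ± 4.04 FPKM in lon1-1 and 55.8 ± 2.30 FPKM in wt (SD, n = 3 each) and was not called (log2 fold change 0.07). Its neighbour GSTZ2 (AT2G02380) had 1.6, 1.61 and 2.01 FPKM in lon1-1, against 0.89, 0.37 and 1.13 FPKM in wt. All lon1-1 values were higher, and the gene passed the filter through lon1-1, since wt C alone among the wt libraries reached 1 FPKM. The levels came to about 34.8 to 45.0 fragments in lon1-1 and 7.7 to 23.1 in wt (log2 fold change 0.63, SE 0.147, limma adjusted p = 0.00296).

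Among the genes whose names gave no class, 6 were tested, 2 were called higher and 1 lower. These are 33.3% and 16.7%, against 44.7% and 32.3% of all genes tested. Median-ratio scaling gave 1 higher and 4 lower, where 6933 and 7047 of all 18299 genes tested were, and upper-quartile scaling gave 2 of each. AT5G42150 (chr5:16846150-16848568, plus strand) had 12.9, 12.11 and 12.21 FPKM in lon1-1, against 5.84, 5.96 and 5.66 FPKM in wt, a wide gap with replicates close together (log2 fold change 0.97, SE 0.0477, limma adjusted p = 5.44e-08). AT1G77290, known as the tetrachlorohydroquinone dehalogenase-like GST, had 5.67, 5.25 and 5.56 FPKM in lon1-1, against 8.17, 6.96 and 7.45 FPKM in wt, all wt libraries being higher (log2 fold change -0.39, SE 0.0631, limma adjusted p = 0.000272).

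AT5G45020 had 5.55, 4.72 and 4.28 FPKM in lon1-1, against 3.74, 4.29 and 3.49 FPKM in wt. The groups overlapped, and its call higher (log2 fold change 0.27, limma adjusted p = 0.0199) was lost without lon1-1 A (0.0778), wt A (0.0531) or wt C (0.0746) and under median-ratio scaling. AT1G65820, a microsomal GST, and AT4G19880 were abundant and not called: AT1G65820 averaged 103 ± 4.50 FPKM in lon1-1 and 104 ± 2.13 FPKM in wt, and AT4G19880 averaged 86.0 ± 1.26 FPKM in lon1-1 and 86.8 ± 2.61 FPKM in wt (SD, n = 3 each). AT5G44000 was not called either, at 6.98 ± 0.436 FPKM in lon1-1 and 7.75 ± 0.614 FPKM in wt (SD, n = 3 each).

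Of the 57 genes, 11 stayed below the filter and have no test. AT5G44990 had 0.03, 0.05 and 0.14 FPKM in lon1-1, against 1.17, 1.36 and 0.85 FPKM in wt, about 1.2, 2.0 and 5.7 fragments against 45.2, 51.8 and 31.9. GSTU3 had 0.16, 0.06 and 0.16 FPKM in lon1-1, against 0.81, 0.98 and 0.51 FPKM in wt. These lay apart in the direction of the phi falls, whereas GSTF11, an enzyme of glucosinolate synthesis, had 0.73, 0.57 and 0.56 FPKM in lon1-1, against 0.12, 0.28 and 0.28 FPKM in wt. GSTF12, the anthocyanin carrier TT19, was listed at 0.03 FPKM in each lon1-1 library, about 1 fragment, and at 0.26, 0.16 and 0.1 FPKM in wt. GSTU23 had 0.75, 1.04 and 0.95 FPKM in lon1-1, against 0.55, 0.31 and 0.67 FPKM in wt. The other 6 (GSTU11, GSTU21, AT1G19550, GSTU15, GSTF13 and GSTF5) were at or below 0.8 FPKM in every library, with overlapping groups.

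**Figure D3:**
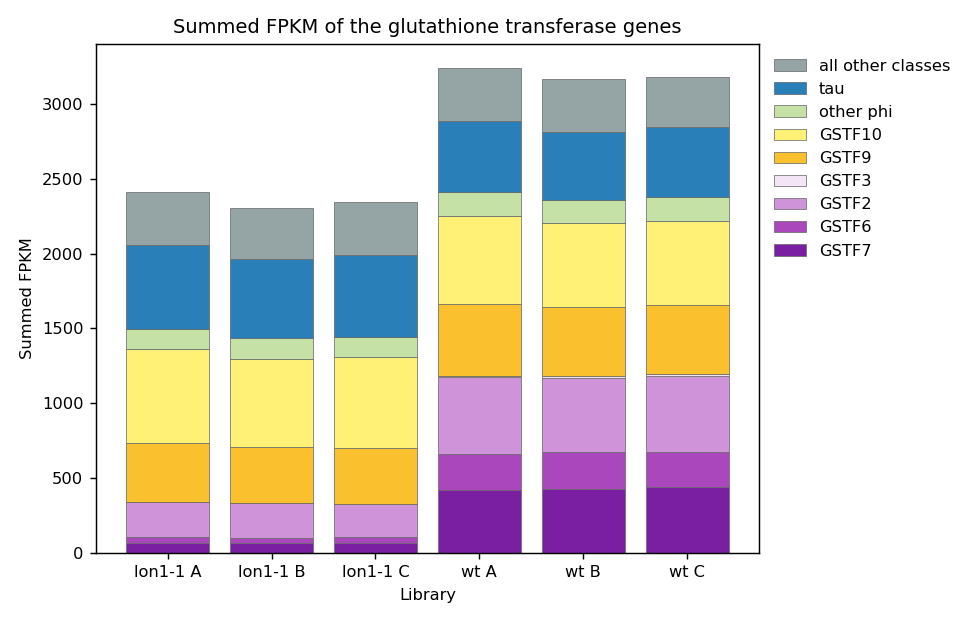
Summed FPKM of all 57 glutathione transferase genes (y axis) in each library (x axis, lon1-1 then wt), stacked by gene or class. The family sum is 2305 to 2414 FPKM in lon1-1 and 3168 to 3240 FPKM in wt, and the 3 purple blocks GSTF7, GSTF6 and GSTF2 are shorter in lon1-1.

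Added up per length, GST transcripts were less abundant in lon1-1 although similar numbers of genes rose and fell. The 57 genes summed to 2413.74, 2304.78 and 2344.56 FPKM in lon1-1, against 3240.43, 3167.71 and 3183.05 FPKM in wt, a ratio of 0.736. The groups did not overlap, and a two-sided exact permutation test of 3 against 3 libraries cannot give a p below 0.1, so the sums are given without a test. Phi genes summed to 1460 ± 33.2 FPKM in lon1-1 and 2383 ± 25.8 FPKM in wt, and lambda genes to 21.7 ± 0.758 FPKM in lon1-1 and 35.2 ± 0.667 FPKM in wt (SD, n = 3 each). Tau genes summed to 544 ± 16.7 FPKM in lon1-1 and 465 ± 9.32 FPKM in wt, and theta genes to 50.2 ± 1.48 FPKM in lon1-1 and 39.4 ± 2.05 FPKM in wt (SD, n = 3 each). In these 4 classes the genotypes lay apart, and the direction was the same under median-ratio and upper-quartile scaling. Zeta and unclassed genes overlapped between genotypes.

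Few genes carried the difference. GSTF2, GSTF3, GSTF6 and GSTF7, picked after their values were seen, summed to 333 ± 6.84 FPKM in lon1-1 and 1188 ± 7.04 FPKM in wt (SD, n = 3 each), or 14.1% of the family sum in lon1-1 and 37.2% in wt. The other 53 genes summed to 2021 ± 52.1 FPKM in lon1-1 and 2009 ± 40.5 FPKM in wt, with overlapping groups and a ratio of 1.01. This ratio is for FPKM as deposited only, and opposite changes met in it. The other 9 phi genes summed to 1127 ± 28.9 FPKM in lon1-1 and 1195 ± 26.6 FPKM in wt (SD, n = 3 each), without overlap. Lambda genes were lower too, whereas tau and theta genes were higher. Phi genes made up 62.0% of the family sum in lon1-1 and 74.55% in wt, and tau genes 23.1% in lon1-1 and 14.6% in wt.

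**Figure D4:**
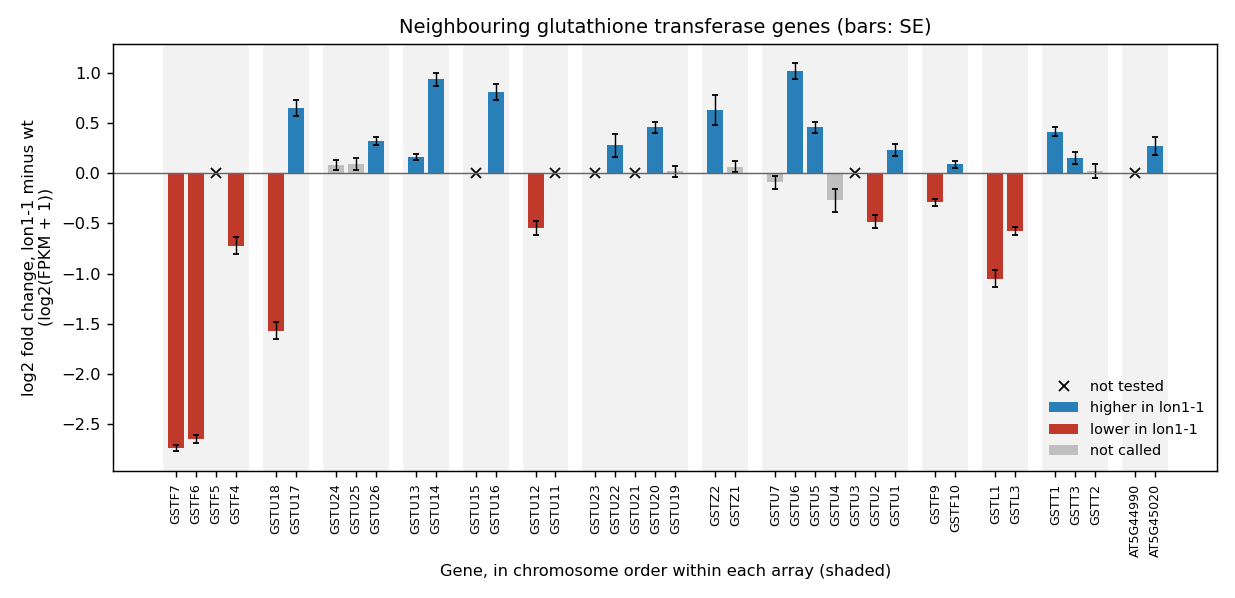
Log2 fold change (y axis, lon1-1 minus wt, log2(FPKM + 1) scale; bars are standard errors) of the 38 genes in 13 tandem arrays, each array shaded, in chromosome order; blue is called higher, red called lower, grey not called, and crosses were not tested. GSTU18 and GSTU17, side by side, stand at -1.57 and 0.65.

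Most GST genes lie in tandem arrays, here sets of members of the family within 20000 bases of the next one: 38 of the 57 in 13 arrays by the TAIR10.1 annotation. In the array of GSTF7, GSTF6, GSTF5 and GSTF4 on chromosome 1, all 3 tested genes were lower, where 32.3% of all genes tested were. In the array of 5 tau genes from GSTU23 to GSTU19, 2 of 3 tested genes were higher, where 44.7% of all genes tested were. These were GSTU20 and GSTU22, and the call of GSTU22 is lost when single libraries are left out, as given above. The largest array, from GSTU7 to GSTU1 on chromosome 2, held 3 higher genes (GSTU6, GSTU5 and GSTU1), 1 lower (GSTU2) and 2 not called. Within it, the ratio of GSTU1 to GSTU2, adjacent genes with coding sequences 85.5% identical, was 5.02 to 6.5 in lon1-1 and 2.89 to 2.97 in wt. Opposite calls within a pair also occurred in GSTU18 with GSTU17 and in GSTF9 with GSTF10, where the call of GSTF10 is the one lost under the settings given above.

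**Figure D5:**
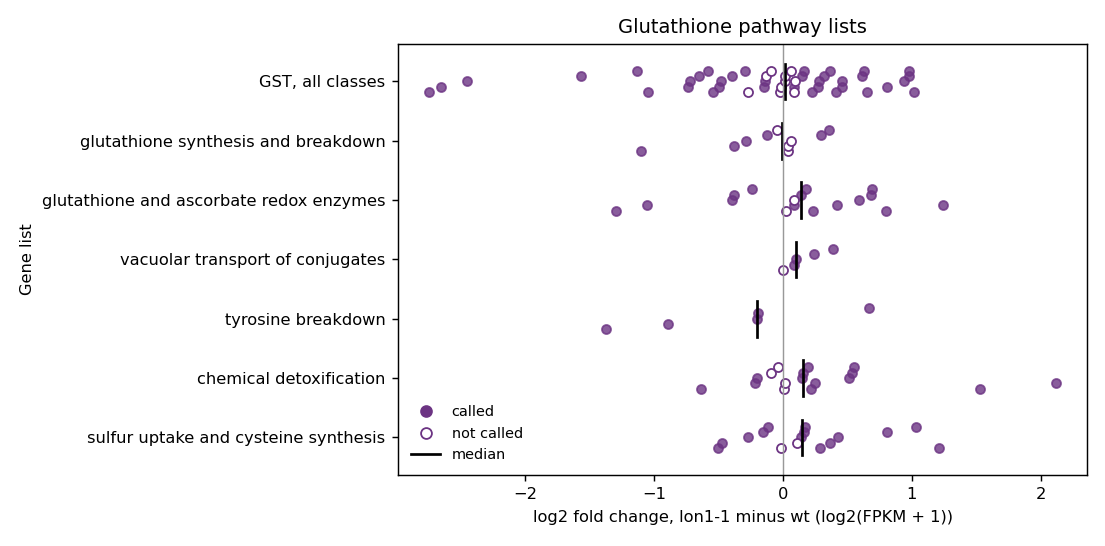
Log2 fold change (x axis, lon1-1 minus wt, log2(FPKM + 1) scale) of the tested glutathione transferases and of the tested genes of 6 lists of related pathways (rows); filled points were called by limma, open points were not, and black bars are medians. DTX3 lies farthest to the right at 2.12 and GSTF7 farthest to the left at -2.74.

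Genes around the GSTs in the glutathione economy were divided. Of 10 tested genes of glutathione synthesis and breakdown, 2 were higher and 4 lower (median log2 fold change -0.00). These are 20% and 40%, against 44.7% and 32.3% of all genes tested. The synthesis gene GSH1 averaged 166 ± 3.01 FPKM in lon1-1 and 162 ± 3.23 FPKM in wt (SD, n = 3 each; limma adjusted p = 0.23), and GSH2 was not called. GGT1, which degrades extracellular glutathione, averaged 10.09 ± 0.267 FPKM in lon1-1 and 22.8 ± 1.15 FPKM in wt (SD, n = 3 each; log2 fold change -1.10, limma adjusted p = 1.95e-08). The plastid glutathione transporters CLT2 and CLT1 were at -0.38 and 0.30, and GGCT2;2, which degrades glutathione in the cytosol, at 0.35.

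Of 17 tested enzymes of glutathione and ascorbate redox chemistry, 10 were higher and 5 lower (median 0.14). These are 58.8% and 29.4%, against 44.7% and 32.3% of all genes tested. TAPX, the thylakoid ascorbate peroxidase, averaged 2.81 ± 0.191 FPKM in lon1-1 and 8.31 ± 0.121 FPKM in wt, and SAPX, the stromal and mitochondrial one, averaged 36.9 ± 1.36 FPKM in lon1-1 and 20.8 ± 0.528 FPKM in wt (SD, n = 3 each). MDAR3, a monodehydroascorbate reductase, averaged 62.1 ± 1.04 FPKM in lon1-1 and 25.7 ± 0.265 FPKM in wt, and GPX1, a plastid glutathione peroxidase-like enzyme, 34.4 ± 1.09 FPKM in lon1-1 and 72.5 ± 0.780 FPKM in wt (SD, n = 3 each). These 4 genes had log2 fold changes of -1.29, 0.80, 1.24 and -1.06, each called by limma.

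Glutathione conjugates enter the vacuole through ABCC transporters, of which 4 of 5 tested were higher and none lower, against 44.7% and 32.3% of all genes tested. The higher ones were ABCC2 at 0.39, ABCC4 at 0.24, ABCC3 at 0.10 and ABCC1 at 0.09. Leaving out lon1-1 B, lon1-1 C, wt A or wt B left 2 of these calls, and median-ratio scaling gave 2 higher and 1 lower. In tyrosine breakdown, the pathway of GSTZ1, 4 of 5 genes were lower and 1, TAT3, higher, against 32.3% and 44.7% of all genes tested. TAT3 passed the filter only through lon1-1, where it averaged 1.35 ± 0.0513 FPKM, against 0.48 ± 0.09 FPKM in wt (SD, n = 3 each). HPD averaged 23.4 ± 0.555 FPKM in lon1-1 and 62.0 ± 0.885 FPKM in wt, and HGO 44.4 ± 1.61 FPKM in lon1-1 and 83.3 ± 0.846 FPKM in wt (SD, n = 3 each; log2 fold changes -1.37 and -0.89), while FAH, the step after GSTZ1, was at -0.20.

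Of 17 tested genes of chemical detoxification, 10 were higher and 3 lower (median 0.15), and 7 higher and 5 lower under median-ratio scaling. DTX3, a multidrug efflux carrier, averaged 14.2 ± 0.334 FPKM in lon1-1 and 2.53 ± 0.447 FPKM in wt, and UGT74E2, a glucosyltransferase, 13.0 ± 0.739 FPKM in lon1-1 and 3.85 ± 0.172 FPKM in wt (SD, n = 3 each; log2 fold changes 2.12 and 1.53). The transcription factor NAC032 was at 0.55 and OPR1, an oxophytodienoate reductase, at -0.63. Of 16 tested genes of sulfur uptake and cysteine synthesis, 9 were higher and 5 lower (median 0.15), and 6 each under median-ratio scaling. SDI1, a sulfur-deficiency marker, and the sulfate-reducing enzymes APR3 and APR2 were higher at 1.21, 1.03 and 0.80. SERAT2;2, a serine acetyltransferase, was lower at -0.50. LSU1 and SULTR1;2 of the same list were not called, at 0.11 and -0.01. SULTR1;1 stayed below the filter, at 0.203 ± 0.0153 FPKM in lon1-1 and 0.87 ± 0.0436 FPKM in wt (SD, n = 3 each). The lists are small, and 77% of all genes tested were called, 44.7% higher and 32.3% lower. Under median-ratio scaling, 6933 of all 18299 genes tested were higher and 7047 lower.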

How the data were processed

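RNA of 3 lon1-1 and 3 wt libraries was sequenced at BGI from ribosomal RNA-depleted stranded libraries, per the labels' protocols. The authors deposited 1 table of FPKM per gene. HISAT2, Bowtie2, RSEM and the build TAIR10 are named in the submitters' processing notes, without roles, and whether strand was used in counting, and how reads matching several copies were shared out, is not given in the sources used here. All 44279 RefSeq transcripts in the table were found with their version in RefSeq's TAIR10.1, whose names, coordinates and sequences were used. Of the 24193 genes, 24152 carry NCBI gene identifiers and 41 were added by the authors, who also added transcripts to 9 of the glutathione transferase genes.

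The log2(FPKM + 1) values were fitted with limma 3.58.1 (R 4.3.3) with a mean trend, keeping genes with at least 1 FPKM in 3 of 6 libraries, and p-values were adjusted by Benjamini-Hochberg over 18308 genes at a threshold of 0.05. The fit was tested on simulated data first. Depth was estimated on a grid of 250000 fragments: 34250000, 34250000 and 35250000 in lon1-1 A, B and C, and 33250000, 32750000 and 32250000 in wt A, B and C, with 95.4% to 98.9% of the low values used lying within 0.15 of a whole number of fragments. 1 FPKM at 1 kb is then 26.4 to 28.9 fragments, so approximate fragment numbers carry counting error. Coding sequences were compared by global alignment (Biopython 1.88) in 463 pairs within classes.

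The genes described were the 6 largest rises and the 6 largest falls among called members, the 3 most abundant tau and phi genes, every called member of the other classes, and up to 4 called genes per pathway list by absolute change. Further members were named after their values were seen, to account for all 57. The members and gene lists were chosen with earlier results of these data known. Alternatives were another pseudocount, other filters and scalings, a replicate block, treat against a fold of 1.5, and leaving out each library. The promoter sequence of 1 gene is not reported here.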

Additional observations from a re-analysis of the deposited data

How the results depend on the processing

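Of the 36 calls among the 46 tested genes, 30 held under every alternative other than treat in which the gene was tested (pseudocount of 0.1, no filter, a filter of 5 FPKM, both scalings, the replicate block and leaving out each library). The 6 that did not were GSTF10, GSTT3, GSTU22, GSTU9, AT5G45020 and GSTU13. Beside the values given above, adjusted p without a filter was 0.0671 for GSTF10, 0.0666 for GSTT3 and 0.0922 for GSTU22. With median-ratio scaling it was 0.938 for GSTF10, 0.317 for GSTT3, 0.124 for GSTU22 and 0.0681 for AT5G45020, and with upper-quartile scaling 0.384 for GSTF10, 0.151 for GSTT3 and 0.0775 for GSTU22. With the filter of 5 FPKM, under which fewer genes are tested, the count of 19 higher and 17 lower genes became 17 and 11 of 36. Under that filter 80.9% of all genes tested were called, against 77% in the main fit. The count was 16 and 20 with upper-quartile scaling (7443 and 6596 of all 18299 genes tested). It was 4 and 6 with treat against a fold of 1.5, which 16% of all genes tested passed. Leaving out a library in turn gave 15 to 19 higher and 14 to 18 lower genes, where 73.2% to 74.4% of all genes tested were called. The summed ratio of 0.736 was 0.691 with median-ratio scaling, 0.709 with upper-quartile scaling and 0.665 without GSTF10, the highest member. On FPKM as deposited, it turned to 1.01 (2021 against 2009 FPKM, overlapping groups) without GSTF2, GSTF3, GSTF6 and GSTF7, an alternative chosen after seeing the data. GSTU19, not called at 0.02, was -0.0741 with median-ratio and -0.0373 with upper-quartile scaling, and ranged from -0.0195 to 0.0788 when 1 library was left out. GSTF10 was -0.00319 with median-ratio scaling. LON1 did not pass treat (-0.63, adjusted p = 1), nor did most genes of the 6 pathway lists, of which 57 were called and 13 passed treat, also chosen after seeing the data. By list, 60% to 100% of the tested genes were called and 0% to 40% passed treat. Of all genes tested, 77% were called and 16% passed treat. Libraries with the same letter did not deviate together (correlations of 0.0604, 0.0171 and -0.0318 for A, B and C). With the letter as a replicate block, 18 genes were higher and 18 lower, where 76.7% of all genes tested were called. The summed ratio by letter was 0.736, and GSTT3 was no longer called (limma adjusted p = 0.0708).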
